A study of Homo sapiens with 11 samples.

Results

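Cell cycle and replication genes are the set of 51 genes that drive or mark division: cyclins and their kinases, the licensing and synthesis machinery of DNA, the kinases, kinetochore and spindle proteins of mitosis, their transcription factors and 2 inhibitors. The members were taken by gene name from the expression table of 57773 genes and from the lists of splice events. All 51 were found, and all 51 passed the filter of 1 FPKM on average (fragments per kilobase, scaled to the mapped fragments of a library), as did 15179 genes in all. The members' levels were measured by RNA-Seq in 9 libraries of HCC78, a human lung adenocarcinoma line that carries an SLC34A2-ROS1 fusion and is itself heterozygous for U2AF1 S34F, a mutation of the splicing factor that helps to define 3′ splice sites. HCC78 cells were transduced with a lentiviral, doxycycline-inducible U2AF1 bearing FLAG and HA tags, either wild-type (WT) or S34F, and stable subclones were derived. The groups are the WT line with doxycycline (WT dox+, 2 libraries) and without it (WT dox-, 2 libraries), the S34F line with doxycycline (S34F dox+, 2 libraries) and without it (S34F dox-, 1 library), and the untransduced parental line (Parental, 2 libraries). The labels give the parental libraries as without doxycycline. A header in the paper's supplementary data reads plus instead, and the labels were followed here. Had the parental cells received the drug, the uninduced lines would differ from Parental in doxycycline as well as in line. Nothing says that replicates came from separate cultures, so p-values measure the spread between these libraries, which may be technical, and sequencing depth is unknown because no read totals per library were used.

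In dividing cells, cyclin D1 with its kinases starts the passage out of G1, and E2F1 then drives the genes of licensing and DNA synthesis. The MCM helicase, loaded by CDC6 and CDT1, opens the origins, and PCNA, RRM1, RRM2 and TYMS support the copying of DNA. A later wave of genes, controlled by MYBL2 and FOXM1 through a short promoter element called the CHR (cell cycle genes homology region), builds the mitotic apparatus. CDKN1A (p21) and CDKN1B (p27) inhibit the cyclin-dependent kinases. MKI67 encodes the Ki-67 antigen by which pathologists score proliferation in lung tumours. In bulk RNA, fewer dividing cells and less RNA per dividing cell cannot be told apart.

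The promoters that follow are shown because members of different roles held different short runs of letters near their start sites. RefSeq windows of 300 bases (GRCh38.p14), from 250 before to 50 after a start site, were matched to 40 of the 51 members, and 8 of them had several windows, so that 54 windows were read. The letters searched on both strands were TTTGAA (CHR), CCAAT and TTTNNCGC (E2F-type), and matches of 2 different motifs overlapped in 2 member windows. The CHR letters stood in 19 of 54 member windows (35.2%) against 15.2% of all 35116 windows, the CCAAT letters in 40 (74.1%) against 34.6%, and the E2F-type letters in 14 (25.9%) against 6.89%. Among spindle and cytokinesis genes, 6 of the 7 members with a window held the CHR letters and 1 held the E2F-type letters. Among replication licensing genes, 6 of 6 held the E2F-type letters and none held the CHR letters. Shown are stretches of 150 bases from 100 before the start, with the CHR or E2F-type matches in capitals, for members that the results turn on and for 2 licensing genes.
ANLN: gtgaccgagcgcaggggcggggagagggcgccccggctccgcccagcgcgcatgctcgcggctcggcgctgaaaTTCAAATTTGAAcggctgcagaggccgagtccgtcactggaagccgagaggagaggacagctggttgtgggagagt
CDC20: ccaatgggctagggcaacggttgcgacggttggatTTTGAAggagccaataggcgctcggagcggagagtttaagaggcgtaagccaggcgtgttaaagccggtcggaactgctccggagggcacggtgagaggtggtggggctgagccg
CENPA: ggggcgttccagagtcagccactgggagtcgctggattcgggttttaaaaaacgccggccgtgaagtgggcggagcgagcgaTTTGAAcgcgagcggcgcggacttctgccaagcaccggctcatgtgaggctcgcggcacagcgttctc
MKI67: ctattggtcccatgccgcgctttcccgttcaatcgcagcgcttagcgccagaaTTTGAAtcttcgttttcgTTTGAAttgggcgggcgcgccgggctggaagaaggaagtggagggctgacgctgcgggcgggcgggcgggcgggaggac
PRC1: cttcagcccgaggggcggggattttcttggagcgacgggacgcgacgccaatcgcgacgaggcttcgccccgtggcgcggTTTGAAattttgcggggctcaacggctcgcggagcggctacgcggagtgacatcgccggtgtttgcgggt
CDC6: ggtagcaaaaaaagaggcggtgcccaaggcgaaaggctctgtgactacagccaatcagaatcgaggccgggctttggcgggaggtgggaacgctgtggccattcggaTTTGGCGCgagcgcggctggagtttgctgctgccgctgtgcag
MCM6: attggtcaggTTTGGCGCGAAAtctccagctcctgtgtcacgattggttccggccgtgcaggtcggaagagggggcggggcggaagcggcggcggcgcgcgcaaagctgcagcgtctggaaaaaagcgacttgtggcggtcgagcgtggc
These stretches lie, in GRCh38.p14, for ANLN at chr7:36389762-36389911 (plus strand), for CDC20 at chr1:43358881-43359030 (plus strand), for CENPA at chr2:26785956-26786105 (plus strand), for MKI67 at chr10:128126374-128126523 (minus strand), for PRC1 at chr15:90994486-90994635 (minus strand), for CDC6 at chr17:40287779-40287928 (plus strand) and for MCM6 at chr2:135876394-135876543 (minus strand). ANLN, CDC20, CENPA, MKI67 and PRC1 showed the CHR letters, as 2 matches in ANLN and MKI67, while CDC6 and MCM6 showed the E2F-type letters. The full CENPA window also held the E2F-type letters, 232 bases before the start and so outside the stretch shown. A match is a run of letters and not a measured binding site.

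Facts of the libraries came first. The S34F share of U2AF1 mRNA in the labels was 12% and 14% in WT dox+, 62% and 65% in S34F dox+, and between 28% and 33% in the other libraries. U2AF1 itself stood at 277.6 and 299.05 FPKM in WT dox+ and at 164.44 and 222.76 in S34F dox+, against 102.76 to 115.06 without induction. S34F dox+ replicate 2 stood apart, with 20896 genes at 1 FPKM or above against 13661 to 17716 in the other 8 libraries. All 4 dox+ libraries (15736 to 20896 genes) lay above the 5 libraries without doxycycline (13661 to 14688), and the part of this in the results with doxycycline was not tested. Of 12 lung epithelial markers, 10 were at 1 FPKM or above in every library, with a summed level of 5063.63 to 7409.66 FPKM. The 10 measured markers of other cell types summed to 8.93 to 20.35 FPKM.

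The members were well expressed. PRC1, which bundles microtubules of the central spindle, had the highest mean (327 FPKM) and CDKN1A the lowest (6.19 FPKM). FPKM is scaled per length, so these levels can be set beside each other. Means were at least 100 FPKM in 18 members and under 20 FPKM in 9. Together the members made up between 0.33% and 0.463% of the summed TPM (the authors' length-scaled transcript share) of a library, lowest in S34F dox+ replicate 1 and highest in S34F dox-.

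**Figure D1:**
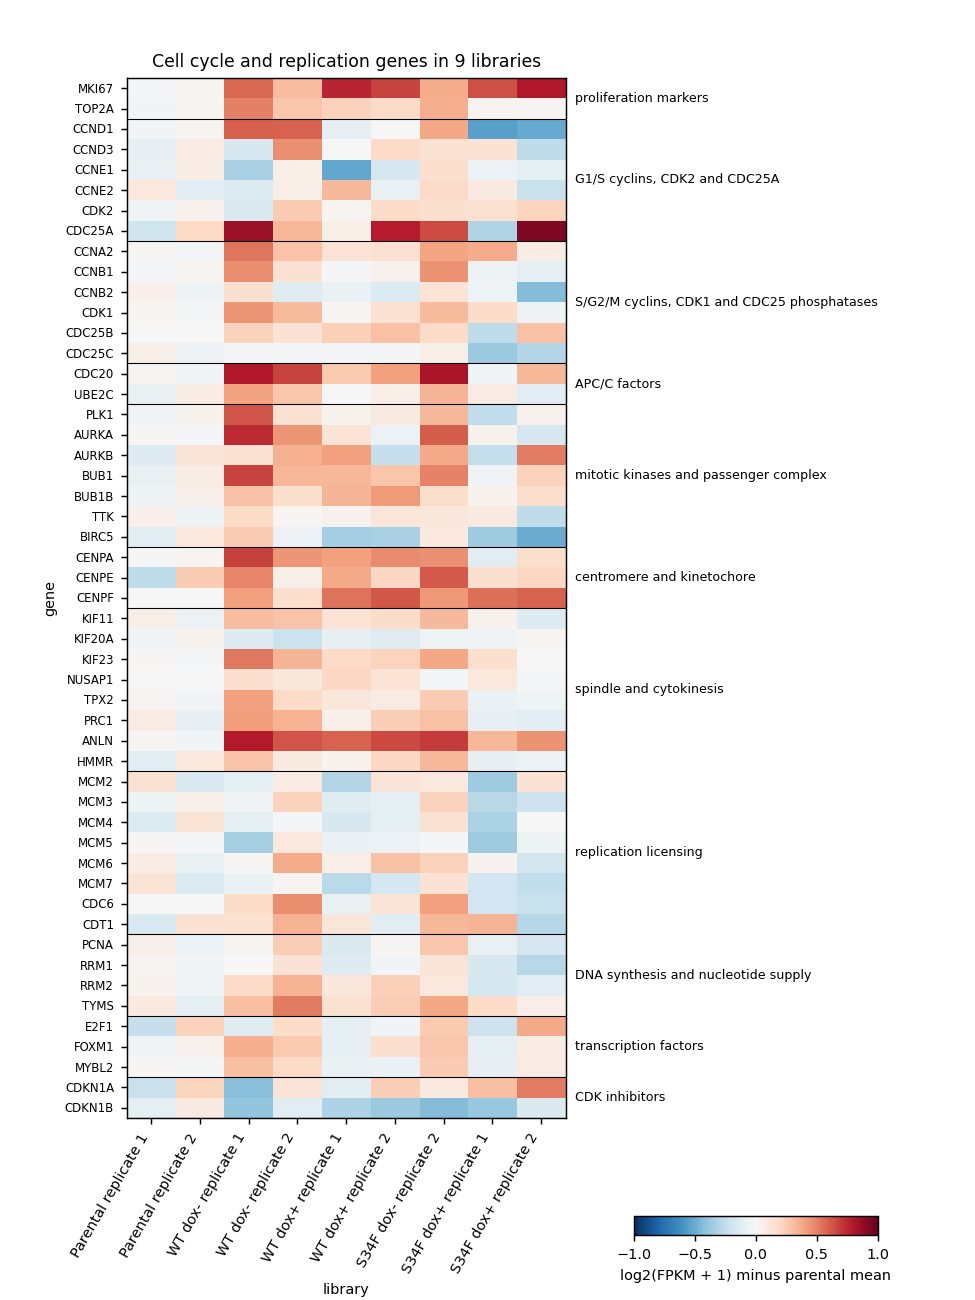
Level of the 51 members (rows, grouped by role) in the 9 libraries (columns), as log2(FPKM + 1) minus the mean of the 2 parental libraries. The uninduced WT and S34F libraries are mostly above the parental mean (red) in the mitotic roles, MKI67 and CENPF stay above it in all 4 dox+ libraries, and CCND1 is below it in both S34F dox+ libraries.

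The first question was whether the transduced lines, before induction, differed from the parental line in these genes, since every other comparison starts from those lines. The members lay higher in the uninduced lines: 47 of 51 were above 0 on the log2 scale, and their median difference was 0.26 against a median of -0.01 over all 15179 genes, or 0.27 above it. A gene was called at an adjusted p below 0.05 (limma, Benjamini-Hochberg over all genes tested), which was met by 0.244% of all genes. It was met by 1 member, ANLN, the actin-binding scaffold of the cleavage furrow. ANLN measured 309.12 and 275.79 FPKM in WT dox-, 290.6 in S34F dox-, and 181.27 and 175.32 in Parental. All 3 uninduced libraries stood above both parental libraries, by 0.71 ± 0.09 (SE) on the log2 scale (limma adjusted p = 0.049). That call sits at the threshold. It was lost on leaving out any 1 of the 5 libraries in the comparison (adjusted p = 0.0705 to 0.264 in limma), and with the replicate number as a block.

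Among the mitotic members the same comparison gave large differences that did not pass the adjusted threshold. CDC20, the activator of the anaphase-promoting complex, measured 91.47 and 84.13 FPKM in WT dox-, 92.84 in S34F dox-, and 53.11 and 51.24 in Parental. The uninduced libraries stood above the parental ones without overlap, by 0.78 ± 0.13 (limma adjusted p = 0.0834). AURKA, the centrosomal mitotic kinase, measured 51.95 and 41.85 FPKM in WT dox-, 46.86 in S34F dox-, and 30.84 and 30.24 in Parental (difference 0.60 ± 0.14, limma adjusted p = 0.143). CENPA, the histone variant that marks centromeres, measured 26.31, 22.19 and 22.41 FPKM in the uninduced libraries against 15.86 and 16.24 (difference 0.51 ± 0.14, limma adjusted p = 0.188). CCND1, which encodes cyclin D1, measured 135.73 and 134.43 in WT dox-, 116.71 in S34F dox-, and 87.42 and 90.88 in Parental (difference 0.49 ± 0.09, limma adjusted p = 0.0916). At an unadjusted p below 0.05, 22 members were higher and 1 was lower, beside 6.21% and 6.86% of all genes in those directions. The groups did not overlap in 28 members that were higher and 2 that were lower, beside 16.1% and 17.1% of all genes. The lung epithelial markers lay mostly the other way, with a median of -0.27, 8 of the 10 tested below 0 and 4 lower and none higher at an unadjusted p below 0.05, and their part in the result was not tested. Their list holds both genes of the SLC34A2-ROS1 fusion. SLC34A2 measured 58.07, 70.51 and 53.77 FPKM in the uninduced libraries against 114.69 and 165.51, and ROS1 14.23, 15.9 and 17.09 against 26.09 and 37.81. Outside the fusion, NAPSA (2.79, 4.02 and 1.82 against 7.39 and 9.97) and CLDN4 (25.25, 32.27 and 28.78 against 36.55 and 48.14) were also lower without overlap. EPCAM (545.24, 510.47 and 527.6 against 515.68 and 540.53) and CDH1 (80.83, 93.59 and 86.04 against 75.45 and 82.27) overlapped.

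The higher levels were spread unevenly over the roles. The 28 G2/M members are the proliferation markers, later cyclins, factors of the anaphase-promoting complex, mitotic kinases, centromere and spindle genes. Their median difference was 0.34, and 27 of them were above 0. In the 12 members of licensing and DNA synthesis the median was 0.18, and 11 of them were above 0. CDKN1B was the member lower in the uninduced lines at an unadjusted p below 0.05, with 15.23, 18.67 and 14.78 FPKM against 19.03 and 21.64 (difference -0.34 ± 0.14, limma adjusted p = 0.373). The 22 became 13 without Parental replicate 1 and 14 without Parental replicate 2. Both uninduced lines gave a like median for the members against Parental, 0.25 in WT dox- and 0.27 in S34F dox-, and S34F dox- minus WT dox- had a median of 0.03 with 20 members below 0. S34F dox- is 1 library, so its values have no replicate check. The number of members below 0 was 4, and 10 without S34F dox-, 8 and 7 without Parental replicates 1 and 2, and 2 and 6 without WT dox- replicates 1 and 2.

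**Figure D2:**
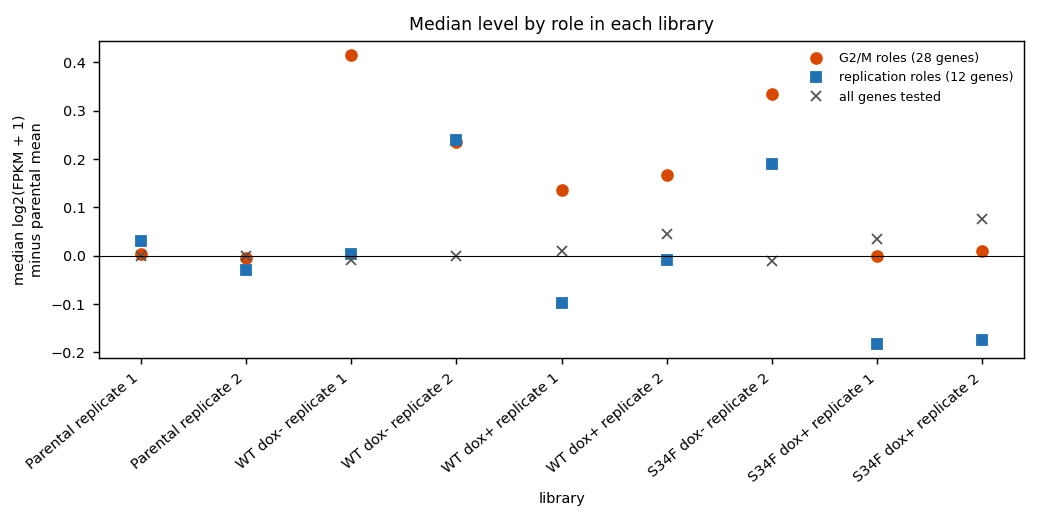
Median log2(FPKM + 1) of the 28 G2/M members, the 12 members of licensing and DNA synthesis and all genes tested, each minus the parental mean, in every library. The G2/M median is 0.41 and 0.24 in the 2 WT dox- libraries, whose replication medians are 0.00 and 0.24, and near 0 in both S34F dox+ libraries.

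The 2 WT dox- libraries differed between themselves in the balance of these roles. The G2/M median stood 0.41 above the replication median in replicate 1, while the same value was -0.0045 in replicate 2. PLK1, a kinase of mitotic entry, was 186.29 FPKM in replicate 1 and 133.29 in replicate 2. MCM5, a helicase subunit, went the other way, with 57.45 and 78.27 FPKM. In the other 5 transduced libraries the balance ran from 0.14 to 0.23, and in the 2 Parental libraries, which are centred on their own mean, it was -0.03 and 0.03.

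The second comparison set the WT line with doxycycline beside the same line without it, in which the drug and the induced U2AF1 cannot be told apart. No member was called in WT dox+ against WT dox- by limma, beside 0.0132% of all genes, and at an unadjusted p below 0.05 there were 1 higher and 8 lower members, beside 8.8% and 5.59% of all genes. The 8 became 5 and 12 without WT dox- replicates 1 and 2, 2 and 5 without WT dox+ replicates 1 and 2, 14 with median-ratio scaling and 3 with quantile normalization. The 1 became 2 without WT dox- replicate 1 and 0 without either WT dox+ library or without WT dox- replicate 2. These repeated counts have no share of all genes beside them. The members' median difference was -0.15, against 0.05 over all genes, and 43 of 51 members lay below that all-gene median, or 35 after quantile normalization. CCND1 had the largest difference: 135.73 and 134.43 FPKM without doxycycline and 84.12 and 88.76 with it. The groups were far apart, by -0.64 ± 0.09 on the log2 scale (limma adjusted p = 0.0812). AURKA measured 33.69 and 29.24 FPKM with doxycycline, below both libraries without it (difference -0.56 ± 0.15, limma adjusted p = 0.192). BIRC5, the survivin subunit of the passenger complex, measured 62.56 and 63.39 FPKM against 95.25 and 76.07 (difference -0.43 ± 0.14, limma adjusted p = 0.257), and the difference was -0.27 without WT dox- replicate 1. CDC20 measured 62.84 and 69.72 FPKM against 91.47 and 84.13 (difference -0.40 ± 0.14, limma adjusted p = 0.277). These 2 comparisons share the WT dox- libraries, so values high in WT dox- enter both with opposite signs.

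Not all mitotic members lay lower with doxycycline. CENPF, a large protein of the outer kinetochore, measured 154.13 and 162.87 FPKM with doxycycline and 140.45 and 117.86 without it (difference 0.30 ± 0.11, limma adjusted p = 0.294). MKI67 measured 169.12 and 159.95 FPKM with doxycycline and 148.76 and 123.83 without it (difference 0.28 ± 0.12, limma adjusted p = 0.349). In both genes the dox+ libraries stood above the dox- ones without overlap. Without WT dox- replicate 2 the differences were 0.17 for CENPF and 0.14 for MKI67. MKI67 and CENPF were also higher in S34F dox+ than in S34F dox-, with 156.55 and 174.1 FPKM against 128.85 for MKI67 and 154.61 and 158.97 against 143.2 for CENPF. Groups did not overlap in 5 members that were higher and 23 that were lower, beside 28.9% and 20.8% of all genes. All 3 transcription factors lay below 0, and MYBL2, which opens the mitotic wave of transcription, measured 73.71 and 73.79 FPKM against 95.07 and 88.05 (difference -0.31 ± 0.10, limma adjusted p = 0.271).

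**Figure D3:**
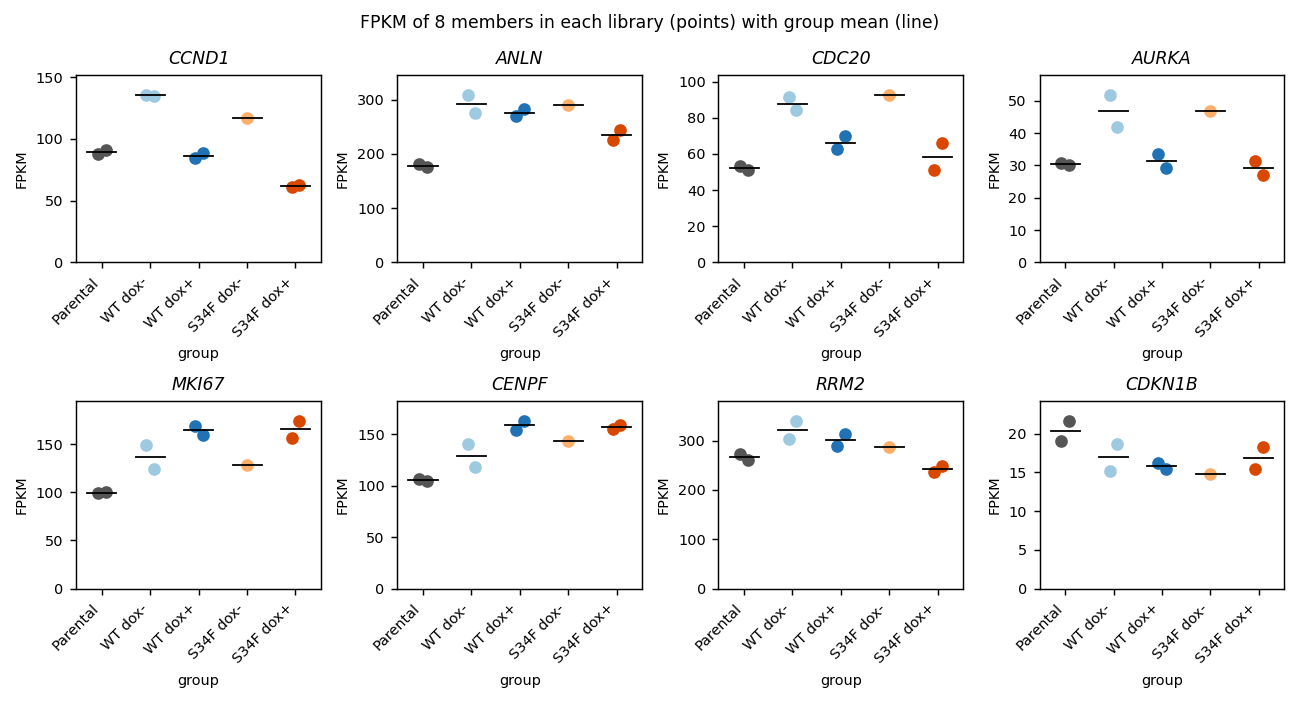
FPKM of 8 members in each library (points) with the group mean (line), with the axis starting at 0. CCND1 is lowest in the S34F dox+ libraries (60.77 and 62.41), ANLN is lowest in Parental, and MKI67 and CENPF are highest in the dox+ libraries.

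The third question, and the one the study was built for, was whether the S34F line differs from the WT line under doxycycline. In it the mutation, the transduced line and the level of induced U2AF1 cannot be told apart. No member was called in S34F dox+ against WT dox+ by limma, where 0.0527% of all genes were, and the smallest adjusted p of a member was 0.371. At an unadjusted p below 0.05 there were 5 lower members and no higher one, beside 2.77% and 4.01% of all genes. The 5 became 3 and 1 without WT dox+ replicates 1 and 2, and 2 and 8 without S34F dox+ replicates 1 and 2, and 14 with TPM in place of FPKM. No share of all genes is given for these repeated counts, and with TPM the median of all genes was -0.074. In the main run the members' median difference was -0.13, against 0.03 over all genes, and 42 of 51 lay below the all-gene median. Without S34F dox+ replicate 2, 39 lay below it. The groups did not overlap in 21 lower and 3 higher members, beside 15.3% and 20.5% of all genes. Without S34F dox+ replicate 2 these were 34 and 8 members, beside 35.4% and 38% of all genes.

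CCND1 again led the members, with 60.77 and 62.41 FPKM in S34F dox+ and 84.12 and 88.76 in WT dox+. The 2 groups were clear of each other, by -0.48 ± 0.09 (limma adjusted p = 0.371), and the difference was -0.50 without S34F dox+ replicate 2. CENPA measured 14.87 and 18.24 FPKM against 21.69 and 22.66 (difference -0.41 ± 0.15, limma adjusted p = 0.658), and the difference was -0.27 without S34F dox+ replicate 1 and -0.55 without replicate 2. CDC25C, a phosphatase that activates CDK1, measured 11.03 and 11.71 FPKM against 14.39 and 14.46 (difference -0.32 ± 0.13, limma adjusted p = 0.697). RRM2, the regulated subunit of ribonucleotide reductase, measured 235.92 and 248.08 FPKM against 288.87 and 314.13 (difference -0.32 ± 0.10, limma adjusted p = 0.619). The fifth lower member was the spindle checkpoint kinase BUB1B, with 107.43 and 118.32 FPKM against 132.68 and 140.99 (difference -0.28 ± 0.11, limma adjusted p = 0.695). Without S34F dox+ replicate 2 the differences were -0.36 for CDC25C, -0.35 for RRM2 and -0.35 for BUB1B. Before induction, S34F dox- minus WT dox- was -0.21 for CCND1, -0.16 for RRM2, -0.10 for CENPA, -0.05 for BUB1B and 0.08 for CDC25C. These values rest on 1 S34F dox- library and were not tested.

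None of the transcription factors, MKI67 or the inhibitors had an unadjusted p below 0.05 in this comparison. E2F1, near the bottom of the members, measured 5.12 and 8.2 FPKM in S34F dox+ and 5.61 and 5.96 in WT dox+, so the groups overlapped. FOXM1 measured 72.07 and 81.29 FPKM against 72.24 and 86.41, and MYBL2 measured 72.96 and 81.61 against 73.71 and 73.79. MKI67 measured 156.55 and 174.1 FPKM against 169.12 and 159.95 and showed no separation. CDKN1A measured 7.21 and 8.53 FPKM against 5.16 and 6.93, a difference of 0.34 ± 0.26 (limma adjusted p = 0.848). The groups did not overlap, and the difference was 0.16 and 0.52 without WT dox+ replicates 1 and 2 and 0.23 without S34F dox+ replicate 2. CDKN1B measured 15.42 and 18.29 FPKM against 16.21 and 15.5.

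**Figure D4:**
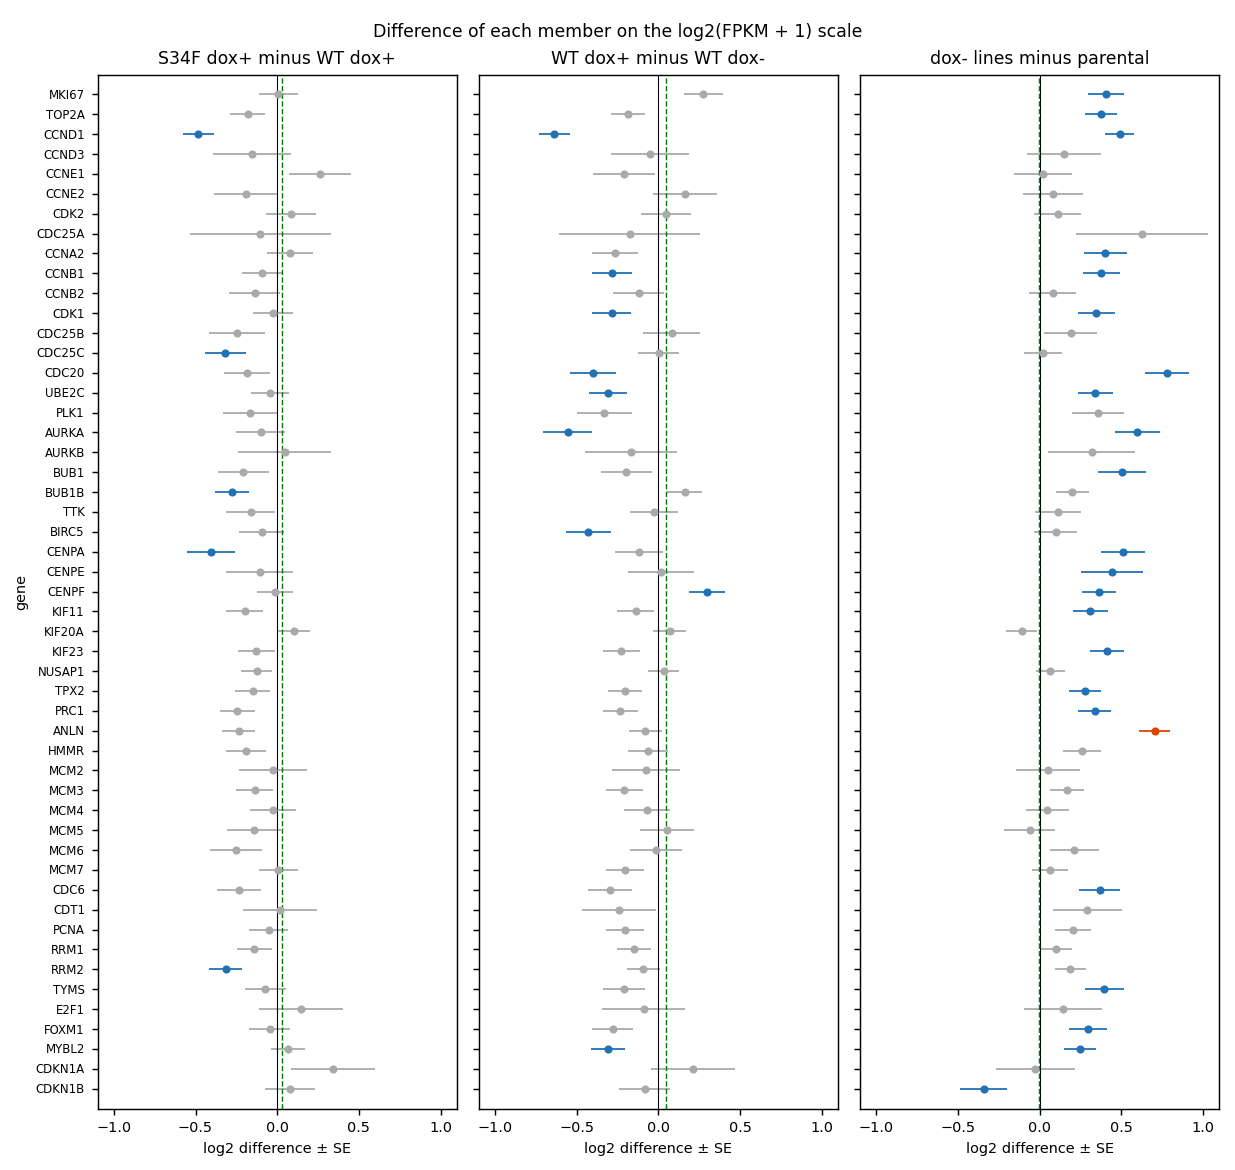
Difference of each member on the log2(FPKM + 1) scale ± SE in 3 comparisons (orange, adjusted p below 0.05; blue, unadjusted p below 0.05; grey, neither; dashed green line, median of all genes). ANLN in the comparison of the uninduced lines with Parental is the single orange point, and CCND1 lies lowest in both comparisons that involve doxycycline.

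Within the S34F line itself, doxycycline went with lower values in 44 of 51 members, with a median of -0.31 against 0.09 over all genes. This has 1 library without doxycycline and was not tested. CCND1 was 116.71 FPKM in S34F dox- and 60.77 and 62.41 in S34F dox+, which made the dox+ mean 0.528 times the dox- value. In the WT line the same ratio was 0.64. The difference of the 2 lines' responses was tested in 1 model: no member was called by limma (0.0264% of all genes were), and none had an unadjusted p below 0.05, where 3.42% of all genes did. At that p, 3 members were lower with TPM, 2 without a minimum of FPKM or without S34F dox+ replicate 2, and 1 with median-ratio scaling or without either WT dox- library. For CCND1 that difference was -0.27 ± 0.15 (limma adjusted p = 1), with -0.42 for TPM and -0.43 for median-ratio scaling. Over the members, the difference of responses had a median of -0.15 against 0.03 over all genes, with 44 of 51 below 0. That shift of the set rests on 1 S34F dox- library and was not tested. The largest differences were seen for CENPE, a kinesin of the kinetochore (-0.44 ± 0.32), CCNE2 (-0.42 ± 0.31), CDC25C (-0.40 ± 0.20) and HMMR (-0.34 ± 0.19) in the negative direction. CDKN1B (0.26 ± 0.24), CDKN1A (0.10 ± 0.41), CCNA2 (0.10 ± 0.22) and MKI67 (0.08 ± 0.19) were largest in the positive direction. All of these had a limma adjusted p of 1. CENPE was at -0.23 without WT dox- replicate 2, CCNE2 at -0.22 and -0.27 without WT dox+ replicate 1 and S34F dox+ replicate 2, and CDKN1B at 0.12 and 0.14 without WT dox- replicate 2 and S34F dox+ replicate 2.

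Genes of the same pathway outside the members were read from 3 lists. Of 56 other G2/M genes, all tested, none was called in any of the 4 comparisons. Their median was 0.31 in the uninduced lines against Parental, with 53 above 0. Of these, 25 were higher at an unadjusted p below 0.05, beside 6.21% of all genes. In S34F dox+ against WT dox+ their median was -0.11, with 3 lower and none higher at that p, beside 2.77% and 4.01% of all genes. Of 50 other G1/S and replication genes, 49 were tested and none was called, with medians of 0.17 and -0.13 in these comparisons. At an unadjusted p below 0.05, 8 were higher and 4 lower, in that order, beside 6.21% and 2.77% of all genes. The 2 most apart between S34F dox+ and WT dox+ were MCM10 (-0.60 ± 0.22), a replication fork factor, and E2F2 (-0.58 ± 0.34). MCM10 measured 23.41 and 15.08 FPKM in S34F dox+ against 27.88 and 30.18, and its difference was -0.30 without S34F dox+ replicate 2. E2F2 measured 1.69 and 2.01 FPKM against 2 and 5.06, and its difference was -0.076 without WT dox+ replicate 2. Among other G2/M genes they were CKAP2L (-0.59 ± 0.16) and TROAP (0.47 ± 0.24), and among 21 tested pocket protein, inhibitor and p53 target genes they were SESN1 (0.77 ± 0.25) and BBC3 (0.58 ± 0.42). Without WT dox+ replicate 2, TROAP was at 0.25 and BBC3 at 0.15. None of those 21 was called either. In S34F dox+ against WT dox+, 1 was higher and 1 lower at an unadjusted p below 0.05, beside 4.01% and 2.77% of all genes.

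Splicing of the members was read as PSI, the fraction of an event's transcripts that include the exon or use the first listed site. The authors' MISO output gives 1 PSI for each side of a comparison of mutant and wild-type, with no replicate values. No difference below therefore has an error or a test. The sides were taken as the S34F line, then the WT line, from the order in the output's name. Doxycycline was taken from the paper's account of the overexpressed isoforms. The members had 317 events on their own strand with at least 10 reads in each condition, in 46 genes. In 46 events of 24 genes the 2 PSI values were at least 0.10 apart, or 14.5%, beside 31.1% of the 79960 events of all genes. The shares depended on reads. Among events with at least 1000 reads (181 member events) they were 10.5% and 11%, and with 500 to 1000 reads (66) 19.7% and 20.1%. With 100 to 500 reads (58) they were 19% and 32.6%, and with 10 to 100 reads (12) 25% and 48.2%. PSI was higher in S34F in 21 and lower in 25 of the 46 events. The listed reads cover the transcripts of an event rather than its junctions.

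The events most apart lay in genes of several roles. In KIF23, a kinesin of the central spindle, an alternative 5′ splice site 4 bases from its partner had a PSI of 0.17 in S34F and 0.62 in WT (756 and 1211 reads, hg19 chr15:69738434-69738625). In FOXM1, a tandem acceptor with sites 3 bases apart had a PSI of 0.52 in S34F and 0.13 in WT (2231 and 3705 reads, chr12:2973918-2975559). In CCND3, a skipped exon had a PSI of 0.82 in S34F and 0.45 in WT (180 and 323 reads, chr6:41908323-42016239). That gap held for 1 upstream site. Joined to other upstream sites, the same acceptor had a PSI of 0.94 and 0.87 (243 and 418 reads, chr6:41908323-41909190). It had 0.9 and 0.84 at chr6:41908323-41997747 (19 and 23 reads). A skipped exon of CDC25C had a PSI of 0.41 in S34F and 0.76 in WT (232 and 403 reads, chr5:137661743-137664173). Set against another skipping junction, the same first junction had a PSI of 0.94 in S34F and 0.97 in WT (261 and 485 reads). A skipped exon of CENPA had a PSI of 0.5 in S34F and 0.85 in WT (545 and 825 reads, chr2:26987294-26997119). With another skipping junction as its partner, that first junction had a PSI of 0.29 in S34F and 0.44 in WT (241 and 343 reads). In CDK1, an alternative 3′ splice site 4 bases from its partner had a PSI of 0.24 in S34F and 0.51 in WT (727 and 1108 reads, chr10:62547992-62551648). Coordinates are of the first listed junction in the authors' hg19 files.

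**Figure D5:**
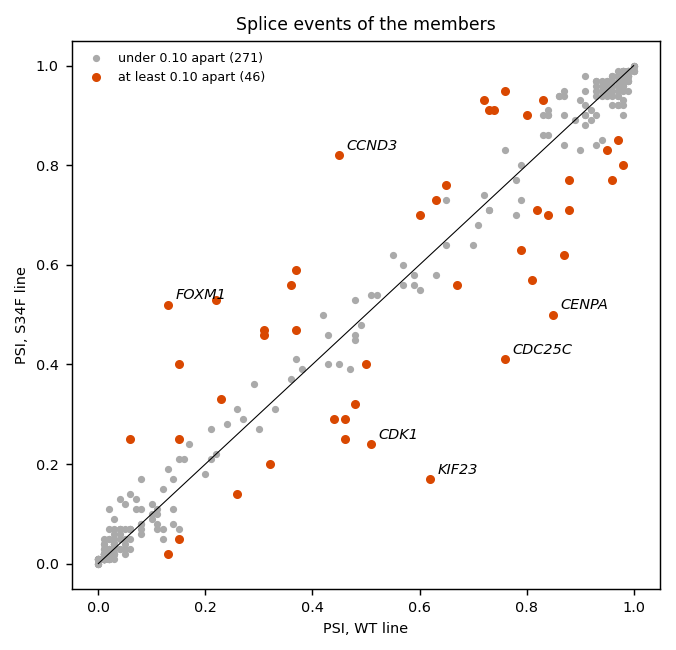
PSI of the 317 member events in the S34F line (vertical) against the WT line (horizontal), both under doxycycline, with the line of equality. The 46 events at least 0.10 apart are orange, and the 6 largest with at least 100 reads in each condition are named.

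The other 37 events at least 0.10 apart with at least 100 reads in each condition differed by less than these. By kind, 25 of 139 skipped exons were apart (30.3% of those of all genes), 11 of 58 NAGNAG acceptors (38.4%), 4 of 45 other alternative 3′ sites (29.5%), 6 of 65 alternative 5′ sites (26.1%) and none of 10 retained introns (30.5%). The shares by kind were not matched for reads.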

How the data were processed

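RNA-Seq of total RNA with a stranded kit was carried out on HCC78-derived cells. The authors aligned reads with STAR 2.3.0 to hg19 and quantified genes with RSEM 1.2.29, which gave the deposited FPKM and TPM. No counts per gene were used here, so depth is unknown and count tests were not applied. For splicing, the authors deposited MISO output with PSI as a fraction and a count of reads per event in each condition. Those files also hold the authors' difference in PSI and Bayes factor, which were not used. How replicates were combined is not given in the sources used here.

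Genes averaging 1 FPKM or more over the 9 libraries were fitted as log2(FPKM + 1) with limma 3.58.1 (trend) in R 4.3.3, in 1 model of 5 groups without covariates. Fold differences of low genes are understated on that scale. Splice events were kept where the strand equals that of the gene in RefSeq (40 members) or of all its 3 or more events (8 members), and 3 members had no strand. The 2 iCLIP libraries were not analysed here. Members, roles and lists were chosen with earlier results of these data known. Named were members called in a comparison, up to 4 per direction with the largest difference at an unadjusted p below 0.05 and no overlap (or, where fewer than 4 met that, the 4 largest in each direction), 7 standing regulators and the highest and lowest member. BUB1B, MCM5 and PLK1 were named after their values were seen, and the counts of members without overlap were repeated without S34F dox+ replicate 2 after seeing the data. Replicate numbers were not used as pairs in the main model. Correlations of replicate differences between groups ran from -0.08 to 0.04 over 6 pairs, which cannot show whether libraries were handled in pairs.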

Additional observations from a re-analysis of the deposited data

How the results depend on the processing

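No member was called in S34F dox+ against WT dox+ or in the difference of the lines' responses under any alternative run. In WT dox+ against WT dox- 1 member, CCND1, was called when protein-coding genes alone were tested, and none otherwise. In the uninduced lines against Parental the 1 call became 0 without a minimum of FPKM, with median-ratio scaling, with quantile normalization and on leaving out any 1 library, and it became 3 (ANLN, CDC20 and CCND1) among protein-coding genes. With the replicate number as a block it became 0, and the block changed no other call. TPM moved the median of all genes by about -0.10 in S34F dox+ against WT dox+ (to -0.074) and by about 0.10 in the uninduced lines (to 0.093), and TPM and median-ratio scaling both took it from 0.03 to -0.11 in the difference of responses. The cause of these changes was not tested. Counts of members at an unadjusted p in alternative runs are given without a share of all genes.

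The members' median minus the median of all genes kept its sign under every alternative run. In S34F dox+ against WT dox+ it was -0.15, -0.11 with quantile normalization and -0.18 to -0.12 on leaving out 1 library. In WT dox+ against WT dox- it was -0.20, -0.24 without a minimum, -0.14 with a minimum of 5 FPKM, -0.088 with quantile normalization and -0.16 among protein-coding genes. In the difference of responses it was -0.19, -0.24 without a minimum, -0.15 with a minimum of 5 FPKM, -0.13 with quantile normalization and -0.23 to -0.15 on leaving out 1 library. In the uninduced lines it was 0.27, 0.21 with quantile normalization and 0.23 to 0.28 on leaving out 1 library.

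Differences near 0 changed sign. In S34F dox+ against WT dox+ this held with TPM for MKI67 (-0.11), CDKN1B (-0.032) and MYBL2 (-0.052), and with median-ratio scaling for MKI67 (-0.061) and MYBL2 (-0.0020). On leaving out 1 library there, MKI67 ran from -0.071 to 0.082, CDKN1B from -0.037 to 0.19, E2F1 from -0.15 to 0.44, FOXM1 from -0.17 to 0.082 and MYBL2 from -0.015 to 0.14. In the difference of responses CDKN1A, CCNA2 and MKI67 were at -0.034, -0.055 and -0.072 with TPM and at -0.044, -0.060 and -0.077 with median-ratio scaling. On leaving out 1 library, they ran from -0.18 to 0.37, from -0.054 to 0.24 and from -0.051 to 0.21. At a PSI difference of 0.20, 14 member events were apart (4.42%, beside 11.8% of all events), and these shares were not matched for reads. On the gene's own strand alone 23 windows held the CCAAT letters (42.6%, beside 19.6% of all windows). Depth is unknown for expression, which limits what can be said of members with low FPKM.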
